A study of Mus musculus with 12 samples.

Results

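The Zfp zinc finger genes were followed by mRNAseq across 3 conditions of mouse splenic B cells. A gene was taken where its symbol is Zfp followed only by digits, Zfp36 and Zfp365 were left out, and the mean of its values over 12 libraries had to reach 100. Of 331 such symbols in a table of 29486 genes, 255 passed and 76 lay under the minimum. The members were therefore selected on their mean level over all 3 conditions, so a high mean is not a result here, and a gene that was low in 1 condition could pass through the others. The level lay under 100 in LPS for 14 of the 255 members, in LE for 4 and in LEKU for 2, and 17 were under 100 in at least 1 condition. Just inside the minimum were Zfp493, Zfp551 and Zfp934 with means of 101, 102 and 104, and just outside were Zfp947, Zfp174 and Zfp418 with means of 98.0, 94.9 and 93.4.

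B cells came from spleens of C57BL/6Babr mice, were isolated with a kit, and all received lipopolysaccharide (LPS, 10 μg/ml), a bacterial mitogen that makes B cells grow and divide. LPS cells had 48 h of LPS alone. LE cells also had etoposide, a topoisomerase II poison that leaves DNA double-strand breaks, at 20 μM for 4 h. LEKU cells had LPS for 47 h, then KU55933 (spelt KU59933 in 1 label field), an inhibitor of the DNA damage kinase ATM, at 10 μM for 1 h, and then etoposide at 20 μM for 4 h. Each condition had 4 libraries, and the labels do not say whether LPS cells stayed in culture for the extra 4 h, so etoposide and those hours cannot be told apart. No condition had KU55933 without etoposide. The libraries of a condition carried Illumina indexes that no other condition carried.

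Most Zfp proteins bind DNA through C2H2 zinc fingers, loops in which a pair of cysteines and a pair of histidines hold a zinc ion and each loop reads a few bases. Many also carry a KRAB domain, which recruits the co-repressor Trim28 and, with it, the histone methyltransferase Setdb1 and HP1 proteins, and these genes are known for silencing transposable elements. They are often found side by side in tandem arrays on the chromosome. A smaller set of Zfp genes codes for proteins with other roles, among them RNA-binding proteins, ubiquitin or SUMO ligases and activators of single target genes.

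The deposited values, normalised read counts, carried no spread between replicates. The columns of a condition were proportional to each other (to within 2.8e-14 in log2 over all genes), so each value was the fitted mean of the condition times a factor of the library. In units of 1000000, the columns summed to between 20.7 and 23.9 in LPS, 22.5 and 30.6 in LE and 20.4 and 25.1 in LEKU. No replicate error could be computed, no test was possible, and no fold change below has a p-value or an SD. All 4 columns of 1 condition lying apart from those of another is likewise no sign of stability. A level is the mean of the 4 columns of a condition after scaling, log2 ratios were taken after adding 1, and a gene is called higher or lower from 1.5-fold on, beside the 10892 genes of the table with a mean of at least 100. Among marker lists, the 6 B cell genes summed to 128749 in LPS, 74729 in LE and 83538 in LEKU, with every member at 1146 or more. The 5 T cell genes summed to 7.89, 9.12 and 9.44, each of them between 0.673 and 3.58 in every condition, and the 5 macrophage genes in the table to 190, 346 and 320, with Csf1r at 4.03, 10.6 and 9.83, Adgre1 at 47.2, 46.2 and 39.9, Cd68 at 101, 216 and 177, Cd14 at 4.99, 24.7 and 41.1 and Lyz2 at 33.0, 49.1 and 51.8. The 4 granulocyte genes summed to 1.13, 1.57 and 1.35, the 4 haemoglobin genes to 202, 140 and 101, the 2 NK cell genes found to 1.62, 1.72 and 2.52, the 3 plasma cell genes found to 9747, 9181 and 7379, and the 3 dendritic cell genes to 2704, 1694 and 2983, nearly all of it Flt3. Of the plasma cell genes, Sdc1 was at 133, 1996 and 644, Prdm1 at 2275, 1752 and 1235, and Xbp1 at 7338, 5433 and 5500. The part of other cell types in the results was not tested. The damage-responsive gene Cdkn1a was at 397, 13737 and 10914 in LPS, LE and LEKU.

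In LE the Zfp genes stood higher than in LPS more often than lower. Of the 255 members, 73 (28.6%) were at least 1.5-fold higher in LE and 6 (2.35%) at least 1.5-fold lower. The background over all genes tested was 16.4% higher and 14.7% lower. The median log2 ratio of the members was 0.34, with quartiles at -0.03 and 0.66, whereas that of all genes tested was -0.01. Of the members, 188 (73.7%) lay above 0, against 49.4% of all genes tested. At 2-fold, 38 members were higher and 1 was lower, beside 9.12% and 5.03% of all genes tested. Counts moved with the processing, to 128 higher and 1 lower on the columns as deposited, 59 and 13 after quantile normalization, and 55 and 15 when all 29486 genes set the scaling. The background moved as well, to 25.5% higher and 7.82% lower as deposited and 14.3% and 16.3% after quantile normalization. Over all 29486 genes, a wider set, it was 14.5% and 11.8%. Fewer cells expressing a gene and less RNA per cell cannot be told apart in these bulk samples.

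**Figure D1:**
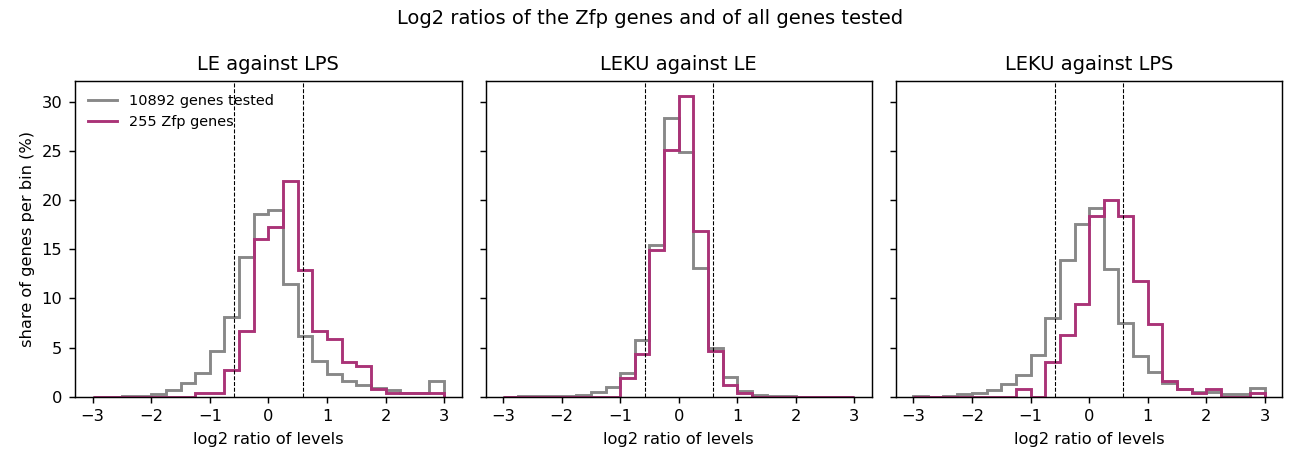
Share of genes (%) in bins of 0.25 of the log2 ratio of levels, for the 255 Zfp genes and the 10892 genes tested, in the 3 comparisons. Dashed lines stand at 1.5-fold, and the outermost bins also hold genes beyond the axis. The Zfp genes are displaced to the right in LE against LPS (median 0.34 against -0.01) and in LEKU against LPS (0.42 against 0.02), and lie around 0 in LEKU against LE (0.03 against -0.03).

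The largest ratios in LE against LPS belonged to genes of different protein types. Zfp750, which codes for a transcription factor of epidermal differentiation (chr11:121510978-121519333, minus strand, GRCm38), had deposited values of 10.7, 11.9, 12.3 and 11.1 in the LPS libraries. In the LE libraries the values were 443, 496, 601 and 481, and in the LEKU libraries 216, 243, 260 and 265. Its level was 12.6 in LPS and 466 in LE, 34.3-fold higher, and it reached the minimum mean through its LE and LEKU columns. Zfp703 (chr8:26977325-26981461, plus strand), a transcriptional regulator known from luminal breast cancer, stood at 157 in LPS and 956 in LE, 6.05-fold higher. Zfp688 (chr7:127418967-127422068, minus strand), with a KRAB-A match and only 2 finger matches, was at 247 and 1205, 4.86-fold higher. These 3 genes were also far above LPS in LEKU, at 240, 748 and 1083. The next ratios were those of KRAB zinc finger genes. Zfp459 was at 63.1 in LPS and 264 in LE, Zfp456 at 234 and 828, and Zfp760 at 547 and 1883, which makes 4.14-, 3.53- and 3.44-fold. Zfp459, too, reached the minimum mean through its LE and LEKU columns.

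The 6 members called lower in LE were Zfp710, Zfp608, Zfp414, Zfp783, Zfp706 and Zfp524, and none of the 5 with a coding sequence had a KRAB-A match. Zfp710 (chr7:80024814-80094173, plus strand) went from 1078 in LPS to 538 in LE, the lowest ratio of the 255 members, and was at 712 in LEKU. Zfp608, a close relative of Zfp609, went from 1052 to 599 and stood at 499 in LEKU. Zfp706, a short protein with 1 finger match, went from 4321 to 2792 and stood at 2747 in LEKU. Zfp414 went from 244 to 148, Zfp524 from 188 to 124, and Zfp783 from 596 to 377. Zfp414 and Zfp524 are uncertain, because 42.0% and 43.6% of the 100-base stretches of their longest transcripts also occur in a transcript of another gene. Zfp783 is annotated as a pseudogene, so no KRAB-A match could be sought in it. Zfp609, a partner of the cohesin loader Nipbl, lay just under the limit, at 1024 in LPS, 689 in LE and 669 in LEKU (log2 ratio -0.57 for LE against LPS).

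**Figure D2:**
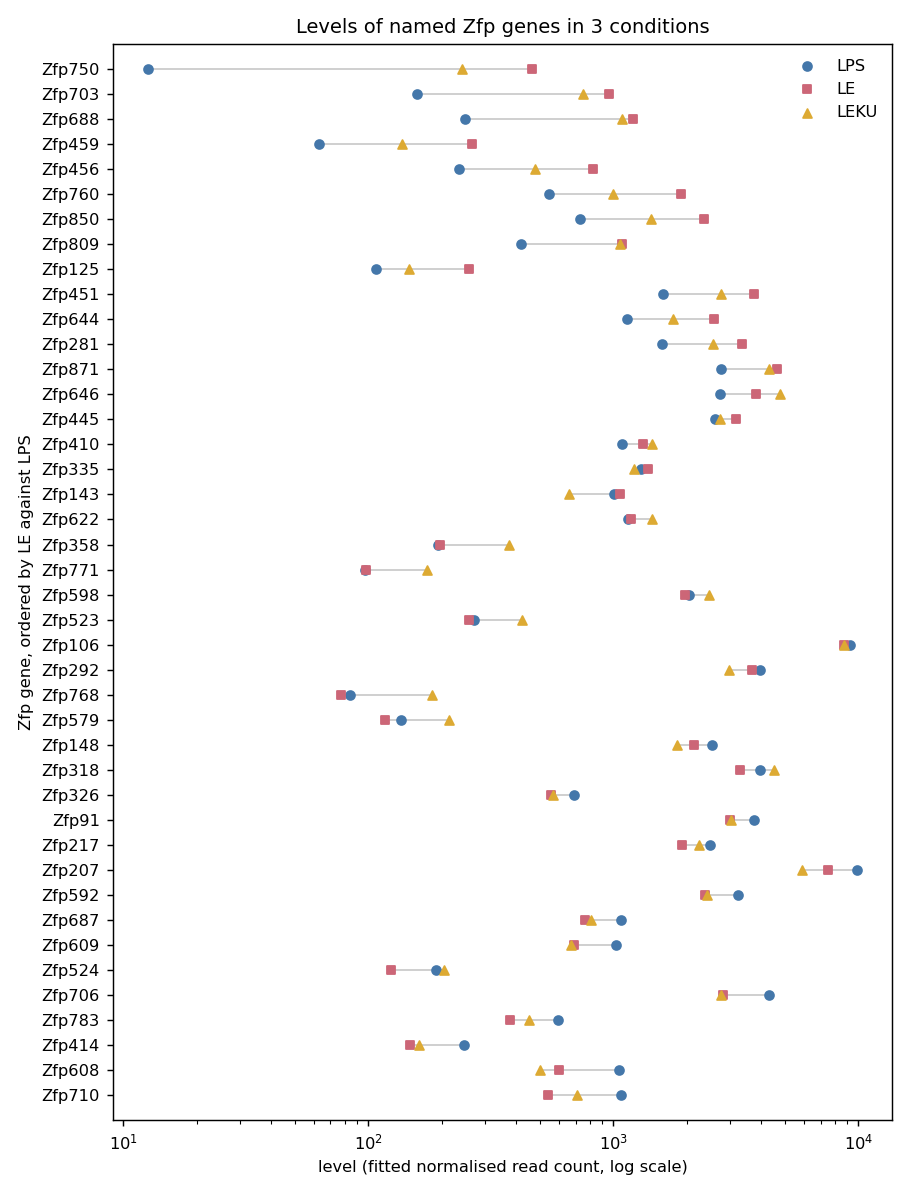
Levels (fitted normalised read counts, log axis) of 42 named Zfp genes in LPS, LE and LEKU, ordered by the log2 ratio of LE against LPS from the lowest at the bottom. Each symbol is 1 condition, and the grey line joins the lowest and highest of the 3. Zfp750 spans from 12.6 to 466, whereas Zfp106 stays between 8738 and 9249.

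Among Zfp genes with known roles, 4 of the 21 that were always described were called higher in LE and 0 lower, a share higher near the background of 16.4%. Zfp451, a SUMO ligase that helps resolve topoisomerase II crosslinked to DNA, was at 1597 in LPS, 3752 in LE and 2750 in LEKU. Zfp281, a transcription factor known from stem cells, was at 1577, 3353 and 2559 in the same order. Zfp644, a partner of the histone methyltransferases G9a and GLP, was at 1137, 2582 and 1752. These 3 genes had log2 ratios of 1.23, 1.09 and 1.18 for LE against LPS and of -0.45, -0.39 and -0.56 for LEKU against LE. Zfp809, a KRAB protein that silences murine leukaemia virus, was at 420, 1083 and 1059, so its level in LEKU was close to that in LE (log2 ratio -0.03). Zfp445, a KRAB protein of genomic imprinting, was at 2597, 3176 and 2716, a log2 ratio of 0.29 for LE against LPS that was not called.

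The following 7 of these genes were not called in LE against LPS, as was true of most genes tested. Zfp207, a spindle assembly factor that also binds RNA, was at 9861 in LPS, 7530 in LE and 5904 in LEKU. Zfp106, an RNA-binding protein needed by motor neurons, was at 9249, 8738 and 8738, and its LEKU and LE levels were nearly the same. Zfp326, part of a complex that links transcript elongation to splicing, was at 689, 558 and 568. Zfp598, the ubiquitin ligase that marks collided ribosomes, was at 2026, 1950 and 2445, and Zfp622, a maturation factor of the large ribosomal subunit, at 1146, 1174 and 1439. Zfp318, which controls the choice between IgM and IgD transcripts in mature B cells, was at 3953, 3276 and 4523. Zfp91, a ubiquitin ligase of the noncanonical NF-kB pathway, was at 3737, 2999 and 3025.

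Regulators of transcription outside the KRAB class gave ratios on both sides of 0. Zfp143, an activator that binds near many promoters, was at 1004 in LPS and 1068 in LE, and at 656 in LEKU, 0.615 of the LE level. Zfp148, a Krüppel-type factor, was at 2517, 2125 and 1825 in LPS, LE and LEKU. Zfp217, a co-repressor partner amplified in tumours, was at 2469, 1913 and 2243. Zfp410, known as an activator of the Chd4 gene, was at 1085, 1321 and 1436, while Chd4 itself was at 18302, 14582 and 13991. Zfp335, required for neural progenitors and T cells, was at 1292, 1386 and 1212, and Zfp292, a large protein with 14 finger matches, at 3952, 3682 and 2957. Zfp592 and Zfp687, which act together with Zmynd8, had log2 ratios of -0.45 and -0.48 for LE against LPS, and both stood within 0.1 of their LE level in LEKU (0.03 and 0.07).

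Per kb of exons, the scale on which genes can be set against each other, the highest mean was that of Zfp207, at 1162 per kb over the 12 libraries. Zfp106 followed at 859, then Zfp362 at 692, Zfp706 at 655 and Zfp869 at 586. By mean value without regard to length, the 5 highest were Zfp106, Zfp207, Zfp871, Zfp318 and Zfp646. Zfp871, a KRAB gene, was at 2739 in LPS, 4631 in LE and 4323 in LEKU, and Zfp646, with 27 finger matches, at 2728, 3828 and 4777. The members' median mean was 617, against 1009 over all genes tested.

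In LE against LPS the median lay above 0 both with and without a KRAB-A match, and was larger with it. A KRAB-A match, at least 11 of 15 fixed letters of a KRAB-A pattern in the protein translated from the annotation, was found in 136 members, and 117 had a coding sequence without one. The class without a match may still hold KRAB genes, since Zfp202 and Zfp212, for example, had 10 of the letters. With the match, 47 members (34.6%) were higher and 0 were lower, with a median log2 ratio of 0.45 and 115 of 136 above 0. Without it, 25 (21.4%) were higher and 5 (4.27%) lower, with a median of 0.14 and 72 of 117 above 0. The other 2 members are annotated pseudogenes, Zfp125 at a log2 ratio of 1.25 and Zfp783 at -0.66. Among the other genes tested, 70 also held a KRAB-A match, with a median of 0.26, 24 higher and 1 lower. In LEKU against LE, the medians with and without the match were 0.02 and 0.05, and that of the 70 other genes with a match was -0.21, with 0 higher and 5 lower. The background in that comparison was 5.82% higher and 7.46% lower. The classes also differed in other ways, with a median G+C content of 41.3% against 49.8% and a median of 12 against 7 finger matches, and the part of these in the difference was not tested.

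**Figure D3:**
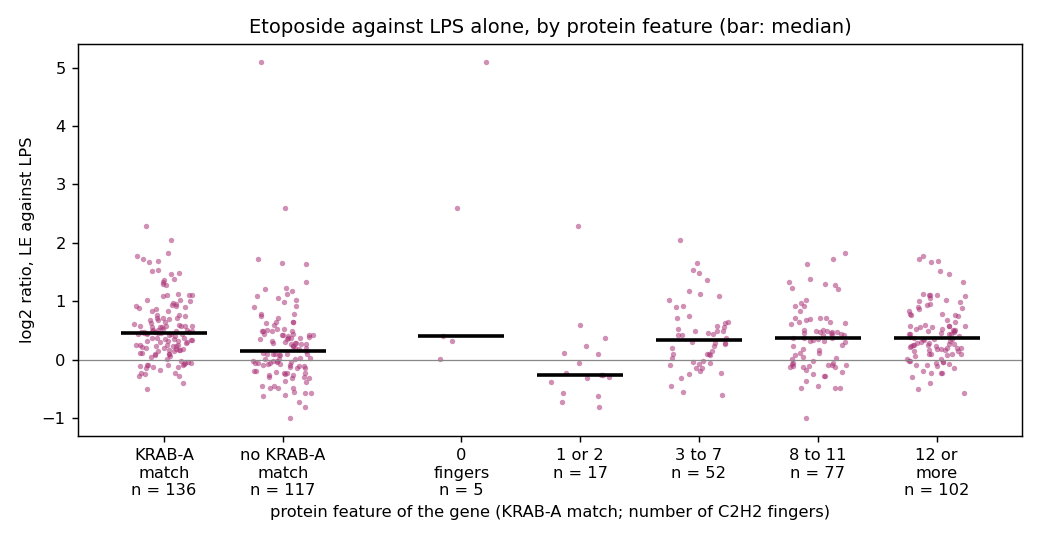
Log2 ratio of LE against LPS for each Zfp gene (points), by KRAB-A match on the left and by number of C2H2 finger matches on the right, with the bar at the median and the number of genes under each group. The median was 0.45 with a KRAB-A match and 0.14 without, and the group with 1 or 2 fingers had its median at -0.26.

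The number of fingers separated a small group from the rest. The pattern of C2H2 fingers matched a median of 10 times per protein and up to 36 times. With 3 to 7, 8 to 11 and 12 or more matches the medians of LE against LPS were 0.34, 0.37 and 0.37, over 52, 77 and 102 members. With 1 or 2 matches the median was -0.26, and of these 17 members 11 lay below 0. Those below 0 include Zfp608, Zfp609, Zfp706, Zfp207, Zfp326, Zfp318 and Zfp598, described above, whose log2 ratios ran from -0.81 to -0.06. The 6 above 0 were Zfp688 at 2.28, the highest of the 17, Zfp830 at 0.59, Zfp821 at 0.37, Zfp488 at 0.24, Zfp367 at 0.12 and Zfp740 at 0.10. At 1.5-fold 2 of the 17 (11.8%) were higher and 3 (17.6%) lower, beside 16.4% and 14.7% of all genes tested. Zfp688 was also the only one of the 17 with a KRAB-A match, so finger number and protein class cannot be told apart in this group. The 5 members without a finger match included Zfp750 and Zfp703.

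By position, members were spread over 20 chromosomes, with 63 on chromosome 7, 34 on chromosome 17 and 26 on chromosome 13. Neighbours with starts under 500 kb apart formed 21 clusters of at least 3 members, which held 135 of the 255. In clusters 42 members (31.1%) were higher in LE and 3 were lower, with a median log2 ratio of 0.37. Outside them 31 of 120 (25.8%) were higher and 3 lower, with a median of 0.26. Over all genes tested, 16.4% were higher and 14.7% lower. With a KRAB-A match the medians were 0.44 in clusters (103 members) and 0.50 outside (33 members), and without a match 0.29 (31 members) and 0.10 (86 members). The clusters overlap the KRAB class widely, and neighbours are not independent of each other.

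On chromosome 13, 3 neighbouring genes had high ratios in LE against LPS. The cluster at chr13:67038596-67827002 (GRCm38) held 17 members, all with a KRAB-A match. Of these, 8 were higher in LE and 0 lower, with a median of 0.57, beside 16.4% and 14.7% of all genes tested. The members of this cluster are described here after their values were seen. Zfp456, Zfp429 and Zfp459 follow each other on the minus strand. Zfp456 was at 234 in LPS, 828 in LE and 478 in LEKU, Zfp429 at 440, 1450 and 919, and Zfp459 at 63.1, 264 and 137. Their log2 ratios in LE against LPS were 1.82, 1.72 and 2.05, and in LEKU against LE -0.79, -0.66 and -0.95, so these 3 genes stood between the other conditions in LEKU. Zfp459 lay under 100 in LPS and reached the minimum mean through its LE and LEKU columns. Its high ratio of LE against LPS therefore follows in part from the selection. Zfp712, at the near end of the cluster, was at 140, 403 and 300, and Zfp748 at 570, 1162 and 1044. At the far end Zfp493 and Zfp273 had ratios of -0.24 and -0.08. Zfp456 and Zfp429 share 7.87% and 6.44% of their 100-base stretches with other transcripts, Zfp459 shares 0%, and Zfp58 of the same cluster shares 49.1% and is uncertain.

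**Figure D4:**
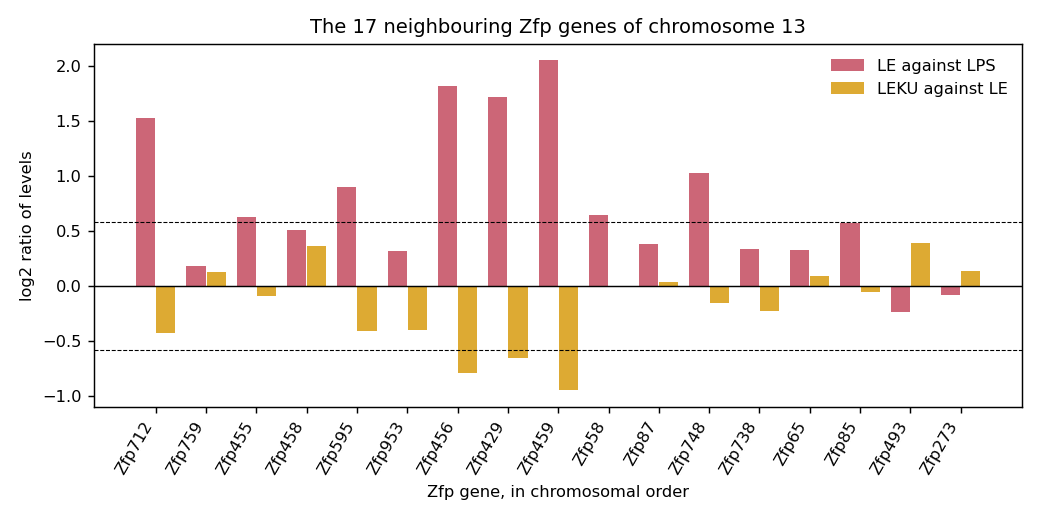
Log2 ratio of levels of LE against LPS and of LEKU against LE for the 17 Zfp genes of the chromosome 13 cluster, in chromosomal order with equal spacing. Dashed lines stand at 1.5-fold. The 3 neighbours Zfp456, Zfp429 and Zfp459 reach 1.82, 1.72 and 2.05 in LE against LPS and -0.79, -0.66 and -0.95 in LEKU against LE. Zfp459 reached the minimum mean through its LE and LEKU columns.

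On chromosome 17, the cluster at chr17:21008903-23564238 had 17 members, 5 higher and a median of 0.37, and that at chr17:32765496-33631779 had 11 members, 6 higher, 1 lower (Zfp414) and a median of 0.68. On chromosome 2, all 3 members at chr2:150114406-150451486, Zfp120, Zfp937 and Zfp442, were higher, with a median of 0.91. On chromosome 7, the cluster at chr7:127233061-127885996 held 10 members, with Zfp688 among the highest ratios of LE against LPS and Zfp768 and Zfp771 among the highest of LEKU against LE. Zfp768 and Zfp771 reached the minimum mean through their LEKU columns. The clusters named here are a choice from the 21, and others stood lower. At chr13:62129886-62571199, 0 of 3 members were higher in LE, with a median of 0.00. At chr7:24081924-24316666, 0 of 4 were higher, with a median of 0.13. At chr10:81704825-82241280, 1 of 3 was higher, with a median of -0.05. Over all genes tested, 16.4% were higher in LE and 14.7% lower.

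Promoter sequences, from 250 bases before to 50 after the start in the RefSeq table for GRCm38.p6, were found for 212 of the 255 members and for 7793 of the genes tested. Motifs were searched on both strands. CCAAT, the NF-Y box, stood in 51.9% of the members' promoters, in 43.9% of those of the genes tested and in 41.1% of all 27025 promoters. GGGCGG, the Sp1 box, stood in 51.9%, 70.3% and 38.2%. The Ets motif CCGGAAG stood in 23.6%, 23.0% and 9.93%, the CRE motif TGACGTCA in 4.25%, 3.97% and 2.03%, and TATAAA in 6.6%, 7.88% and 15.7%. Members with GGGCGG had a median log2 ratio of 0.25 in LE against LPS, and those without it 0.43. For CCAAT these medians were 0.38 and 0.29.

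A longer motif, chosen after the members' promoters had been looked at, was TGGGANNTGTAGT, whose letters resemble the site that Zfp143 is known to bind. It stood in 36 of 212 members' promoters (17.0%), in 4.48% of those of the genes tested and in 1.69% of all promoters. In the chromosome 13 cluster it stood in 14 of the 15 members with a promoter sequence. Members with it had a median log2 ratio of 0.45 in LE against LPS, with 11 of 36 higher, and those without it 0.29, with 50 of 176 higher. In LEKU against LE the medians were 0.10 and 0.01. Outside the chromosome 13 cluster 22 members held the motif, and only Zfp219, Zfp933, Zfp84 and Zfp420 of these were higher in LE. The other higher members with the motif were neighbours in that cluster, which are not independent of each other. Of all genes tested, 16.4% were higher in LE. Over all genes tested that held the motif, the median of LE against LPS was 0.00. Windows of 43 bases around it are shown for 6 members of the cluster, 4 that were called higher in LE against LPS and then 2 that were not, to show how alike these stretches are. They are written 5′ to 3′ on the minus strand for the first 5 and on the plus strand for Zfp273, in each case the strand of the gene, with the motif in capitals.
Zfp712: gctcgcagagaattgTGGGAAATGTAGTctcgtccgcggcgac
Zfp595: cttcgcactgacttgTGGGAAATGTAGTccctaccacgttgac
Zfp456: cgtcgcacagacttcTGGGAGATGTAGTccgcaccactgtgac
Zfp429: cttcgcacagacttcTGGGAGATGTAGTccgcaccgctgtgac
Zfp953: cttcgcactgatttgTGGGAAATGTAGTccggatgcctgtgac
Zfp273: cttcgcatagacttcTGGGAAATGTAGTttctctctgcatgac
The motif began 57 bases before the start of Zfp712, 52 before that of Zfp595, 70 for Zfp456, 72 for Zfp429, 76 for Zfp953 and 68 for Zfp273. The window of Zfp456 is chr13:67375806-67375848 and that of Zfp429 chr13:67399812-67399854. The log2 ratios of LE against LPS were 1.52, 0.90, 1.82, 1.72, 0.31 and -0.08 in the order shown, so members with similar stretches spanned ratios from -0.08 to 1.82.

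With KU55933 before etoposide, few members differed from etoposide alone. Of 255, 7 (2.75%) were at least 1.5-fold higher in LEKU than in LE and 12 (4.71%) at least 1.5-fold lower. The background was 5.82% higher and 7.46% lower, and both shares of the members lay under it. The median log2 ratio was 0.03, against -0.03 over all genes tested, and 137 of 255 lay above 0. The balance of the calls depended on the scaling, with 12 higher and 9 lower when columns were scaled to equal totals. With that scaling 7.30% of all genes tested were higher and 6.17% lower.

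The 6 lowest ratios of LEKU against LE were those of genes whose levels in LE lay above those in LPS. Zfp750 was at 466 in LE and 240 in LEKU, Zfp459 at 264 and 137, Zfp760 at 1883 and 993, Zfp125 at 257 and 146, Zfp456 at 828 and 478, and Zfp850 at 2348 and 1426. Their LPS levels, 12.6, 63.1, 547, 107, 234 and 727, lay below both. Of these genes, Zfp750 and Zfp459 lay under the minimum in LPS and passed through their LE and LEKU columns. LE enters both LE against LPS and LEKU against LE, so the values are given side by side and are not independent. Zfp143 differed from these 6 genes, since its LEKU level of 656 was below the LPS level of 1004 as well. Zfp407, named here after its values were seen, also had its lowest level in LEKU, from 978 in LPS to 659 in LE and 412 in LEKU.

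The highest ratios of LEKU against LE belonged to genes whose LE level was close to or below that in LPS. Zfp768 was at 83.8 in LPS, 77.1 in LE and 181 in LEKU, 2.33-fold above LE, and was the only member past 2-fold in this comparison. Its neighbour Zfp771 was at 97.2, 97.5 and 174. Both genes lay under 100 in LPS and in LE and reached the minimum mean through their LEKU columns. Their high ratios of LEKU against LE therefore follow in part from the selection. Zfp358 was at 192, 196 and 375, and Zfp523, a relative of Zfp143, at 269, 258 and 425. Zfp579 was at 135, 117 and 213, and Zfp524, which lies in the same chromosome 7 cluster, at 188, 124 and 203. The LE levels of these 6 genes ran from 77.1 to 258.

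Among the members, composition went with the ratio of LEKU against LE more than with that of LE against LPS. Across the 255 members, the G+C content of the longest transcript and the log2 ratio of LEKU against LE had a Pearson's r of 0.37 and a Spearman's rho of 0.35, as a description across genes, which are not independent replicates. Over 10860 genes tested with an annotation these were 0.08 and 0.12. For LE against LPS the members' values were -0.13 and -0.18, and those over all genes tested 0.08 and 0.04. In the 64 members with the lowest G+C, from 35.4% to 40.1%, the median of LEKU against LE was -0.09, 0 of 64 were higher and 4 lower. In the 64 with the highest, from 51.4% to 68.7%, it was 0.23, 7 were higher and 1 lower, so all 7 members called higher were among these. These 7 include Zfp768 and Zfp771, which reached the minimum mean through LEKU. All genes tested within the same G+C ranges had medians of -0.08 and 0.02. In the lowest range 3.3% of all genes tested were higher and 5.88% lower, beside 0% and 6.25% of the members. In the highest range these shares were 8.53% and 8.79%, beside 10.9% and 1.56% of the members, so the members' share higher lay near that of all genes.

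**Figure D5:**
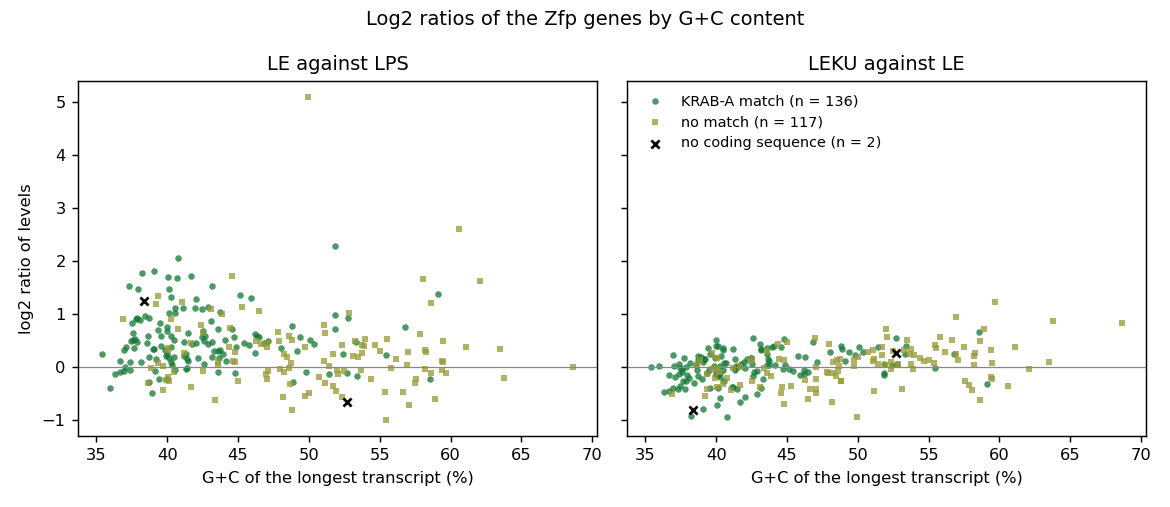
Log2 ratio of levels against the G+C content (%) of the longest transcript for each Zfp gene, in LE against LPS on the left and LEKU against LE on the right, with symbols for the protein class. On the right the ratios lie higher at high G+C (rho 0.35), with a median of 0.23 in the 64 genes highest in G+C and -0.09 in the 64 lowest.

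Gene length also went with the ratios. The members' genomic span had a rho of -0.16 with LE against LPS, -0.22 with LEKU against LE and -0.31 with LEKU against LPS, and over all genes tested these were -0.14, -0.08 and -0.17. In the 64 members with the longest span, from 27337 bases up, 11 were higher in LE and 2 lower, with a median of 0.09, whereas all genes tested of the same spans had 15.3% higher, 19.2% lower and a median of -0.11. In the range of the 64 shortest members the medians were 0.37 for the members and 0.02 for all genes tested. In each of 4 equal groups by span, and of 4 by G+C content, the members' median of LE against LPS lay above that of all genes tested in the same range.

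The Zfp genes also stood higher in LEKU than in LPS more often than lower. In LEKU 87 of 255 (34.1%) were at least 1.5-fold higher than in LPS and 10 (3.92%) lower, beside backgrounds of 15.8% and 14.2%. The median was 0.42 against 0.02 over all genes tested, and 204 members (80.0%) lay above 0. LPS is shared with the comparison of LE, so this is not a second line of evidence. The KRAB class had 58 of 136 higher and 1 lower, and the class without a match 29 of 117 higher and 9 lower. The 70 other genes tested with a KRAB-A match had 20 higher and 9 lower, with a median of 0.14. The lowest ratios were those of Zfp407 and Zfp608, at -1.24 and -1.07.

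The genes of other C2H2 families also stood higher in LE. Of 32 Zbtb genes, whose proteins join fingers to a BTB domain, 12 were higher in LE than in LPS and 3 lower, with a median of 0.36. Zbtb42 was highest, at 136 in LPS, 685 in LE and 390 in LEKU, followed by Zbtb10 at 465, 1910 and 1941. Zbtb32, known from activated lymphocytes, went the other way, at 6527, 2817 and 5630. Of 15 Zkscan and Zscan genes, which carry a SCAN domain, 9 were higher and 0 lower, with a median of 0.96, and Zscan25 was at 379, 1184 and 794. The background over all genes tested in LE against LPS was 16.4% higher and 14.7% lower. In LEKU against LE the medians of these families were 0.00 and -0.02, with 3 and 0 genes higher and 2 and 0 lower. The background there was 5.82% higher and 7.46% lower, and these small counts lie near it. The 19 Zfp genes with a letter after the digits that also reach the minimum had 10 higher, 0 lower and a median of 0.64 in LE against LPS. Of the Zfp symbols under the minimum, 45 had a mean of at least 10. In LE against LPS 23 of these were higher and 3 lower, beside 39.9% and 10.9% of all 4114 genes with such means, and the other 31 had means under 10.

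A broad list of 27 co-repressor and chromatin genes, written from general knowledge, holds the partners of the KRAB domain. All 27 reached the minimum, and 1 was higher in LE than in LPS and 6 (22.2%) lower, beside backgrounds of 16.4% and 14.7%, with a median of -0.34. Trim28, which the KRAB domain binds, was at 8892 in LPS, 7675 in LE and 8473 in LEKU, and Setdb1 at 2851, 2879 and 2752, so neither was called. Those called lower were Mbd3 of the NuRD complex at 2437, 1136 and 1461, the HP1 gene Cbx3 at 3684, 1864 and 1717, Uhrf1, which brings Dnmt1 to replicated DNA, at 9904, 5152 and 3637, the remodeller Atrx at 12392, 7233 and 6863, the histone-binding Rbbp7 at 8257, 5058 and 3595, and the histone chaperone Daxx at 3186, 2114 and 2818. Hdac2 was the gene called higher, at 1780, 3245 and 2026. In LEKU against LE 0 were higher and 1 lower, Hdac2, with a median of -0.11, and in LEKU against LPS 0 were higher and 9 lower, with a median of -0.39. The backgrounds were 5.82% higher and 7.46% lower in LEKU against LE, and 15.8% and 14.2% in LEKU against LPS.

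Reads could be shared between similar Zfp genes. In 195 members no 100-base stretch of the longest transcript, the length of the reads, occurred in a transcript of another gene, and 20 shared over 10%. Of these, Zfp935, Zfp433, Zfp960 and Zfp97 shared 99.3%, 86.7%, 69.2% and 68.0%, and their values are uncertain. In the 195 without a shared stretch, 60 were higher in LE than in LPS and 2 lower, with a median of 0.37.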

How the data were processed

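Poly(A) RNA of 12 libraries was sequenced by the authors. Per the labels and the study's methods, reads were trimmed with Trim Galore (cutadapt 1.2.1), mapped to GRCm38 with TopHat2 2.0.12, counted with HTSeq and normalised with DESeq2 1.6.3; the strand setting of the counting is not given in the sources used here. The deposited table is a signal per gene and library, fitted condition means times a library factor, so the planned limma test could not be run. Fitted fold changes of this kind may be moderated toward 0. The 3 deposited comparison tables hold the authors' fold changes and p-values and were not used. Nothing in the labels says that libraries came from separate mice, while the study's methods speak of 4 biological replicates.

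Columns were scaled by the median of ratios over genes with a mean of at least 100, with Python 3.11.15, numpy 2.4.6 and pandas 2.3.3, in steps tested on simulated data. Coordinates, lengths and G+C content came from GENCODE M21 (GRCm38). Fingers (C, 2 to 4 residues, C, 12 residues, H, 3 to 5 residues, H) and KRAB-A matches (at least 11 of 15 letters) were counted in its translated coding sequences, not in a RefSeq protein table as planned. The genes named are the 5 with the highest mean, the 6 highest and 6 lowest ratios in LE against LPS and in LEKU against LE, 21 with known roles, and 3 on either side of the minimum mean. Members and lists were chosen with earlier results of these data known. Alternatives were scaling by totals, TMM, quantiles or none, pseudocounts of 0.5 and 5, other minimum means, a call at 2-fold and leaving out each library.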

Additional observations from a re-analysis of the deposited data

How the results depend on the processing

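The direction of no named gene called in a comparison was reversed by any setting. Such a reversal was hardly possible, because the settings moved the median of all genes tested by at most 0.25. A call at 1.5-fold lies further from 0 than that, so the absence of reversals is no sign of stability. The columns as deposited moved the median log2 ratio of all genes tested by 0.25 in LE against LPS and by 0.16 in LEKU against LPS, and totals moved the latter by 0.10. As deposited, 128 members were higher and 1 lower in LE against LPS (median 0.59), where calls over all genes were 76.5% higher instead of 52.8%, and 2 were lower in LEKU against LPS (median 0.58, with 70.7% instead of 52.6% of all calls higher). As deposited, 4.33% of all genes tested were higher and 10.1% lower in LEKU against LE, with 6 members higher and 16 lower. In LEKU against LPS as deposited, 22.6% of all genes tested were higher and 9.39% lower. With totals, 12 members were higher and 9 lower in LEKU against LE (54.2% of all calls higher), and 3 were lower in LEKU against LPS (110 higher, median 0.52, 64.2% of all calls higher). With TMM, 10 members were higher and 10 lower in LEKU against LE, beside 6.67% and 6.61% of all genes tested. Calls with TMM in the other comparisons stayed within 1.5 times. Quantile normalization gave 13 members lower and 59 higher in LE against LPS (median 0.22), a median of 0.32 in LEKU against LPS, and medians relative to all genes tested of 0.61 for Zkscan and Zscan genes in LE against LPS and of -0.24 for the co-repressor list in LEKU against LPS. Taking all 29486 genes above 0 gave 15 members lower (55 higher) and a median of 0.17 in LE against LPS, 0.16 relative to all genes, 11 higher in LEKU against LE, and a median of 0.29 in LEKU against LPS, 0.28 relative to all genes. In LE against LPS, 14.3% of all genes tested were higher and 16.3% lower with quantiles. Over all 29486 genes, 14.5% were higher and 11.8% lower, and 5.02% were higher in LEKU against LE. A member minimum of 200 left 2 higher in LEKU against LE, beside 5.82% of all genes tested. At 2-fold the members higher and lower were 38 and 1 in LE against LPS, 1 and 0 in LEKU against LE, and 29 and 2 in LEKU against LPS. In the same order, the shares of all genes tested were 9.12% and 5.03%, 1.15% and 1.95%, and 7.23% and 5.09%. Of 212 values for lists outside the leave-one-out fits, 186 stayed within 1.5 times (counts) or 0.1 (log2 medians), among them those for protein class outside clusters, for clusters at 1000 kb, and, both added after seeing the data, for members with at most 10% shared stretches and for members with a coding sequence. Leaving out each library changed only the scaling, since columns of a condition are proportional: members higher ranged from 72 to 73 in LE against LPS, from 7 to 7 in LEKU against LE and from 86 to 87 in LEKU against LPS. No paired analysis was possible because the columns hold no spread between replicates and the results come from no test.

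Without replicate error, a difference near 1.5-fold cannot be told from no difference. Values of members near a mean of 100 rest on few reads, and depth per gene is known only through the fitted means. The cause of the changes with scaling was not tested.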
